A study of Mus musculus with 23 samples.

Results

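The genes described here are 8 members of the pathways that split and build glucose, chosen by symbol from 27179 genes counted in mouse liver. Pck1 and Fbp1 encode enzymes of gluconeogenesis, and Pklr encodes the pyruvate kinase of the adult liver. Hk2, Pkm, Aldoa and Slc2a1 encode isozymes and a glucose transporter that fetal tissue, muscle or tumors use in place of the adult liver forms. Ldha encodes the lactate dehydrogenase subunit of muscle and tumors, and was also the main subunit in the control livers. All 8 were found in the table. The list is made of gene names and has no threshold on a measured value, but it was proposed with earlier results of these data known. It asks whether livers that express Braf V600E moved from the adult toward the fetal or tumor set, with and without Icmt, the methyltransferase that acts on the C terminus of prenylated proteins such as RAS.

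Glucose is phosphorylated by hexokinases, split by aldolase into triose phosphates and turned into pyruvate, which lactate dehydrogenase reduces to lactate. Hepatocytes can run this route backward through phosphoenolpyruvate carboxykinase and fructose-1,6-bisphosphatase, which bypass the irreversible steps, and so release glucose into blood during a fast. At several steps the adult hepatocyte uses its own isozyme, such as liver pyruvate kinase and the transporter GLUT2. Proliferating and fetal cells rely more on hexokinase 2, aldolase A, the M type pyruvate kinase and GLUT1.

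RNA was sequenced from liver tissue without visible tumors of 15 female mice. All of them carried Alb-Cre, a recombinase driven by the albumin promoter and so active mainly in hepatocytes, and Trp53 flx/flx, the conditional allele of p53, so the control livers carried this allele too. The 6 Ctrl mice had wild-type Braf and Icmt flx/+. The 6 ABpIF/+ mice added the BrafCA/+ allele, which yields Braf V600E after recombination, on Icmt flx/+, and the 3 ABpIF/F mice had the same Braf allele with Icmt flx/flx, which targets both Icmt copies. The Braf allele of these groups follows the design text, since the sample labels write BRAF +/+ for both. Ages at sampling were not given per mouse in the labels. The 3 ABpIF/F mice are all that were obtained, and the study describes them as far apart in age, without tying an age to a sequenced mouse, so the part of age was not tested. By the strain label, 5 Ctrl mice belonged to the parental line, and the Ctrl mouse BG3 and all ABpIF/+ and ABpIF/F mice to the crossed line. With the strain label as a covariate, a comparison with Ctrl therefore rests on BG3 as the 1 Ctrl mouse of the crossed line, and a call lost in such a fit does not show that the difference is smaller.

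Each mouse had 24742910 to 32262649 counted reads. Values are CPM, the counts of a gene scaled to the library size after TMM normalisation, unless stated otherwise. Icmt was at 27.8 to 34.7 CPM in Ctrl, 27.8 to 37.4 CPM in ABpIF/+ and 15.2 to 16.6 CPM in ABpIF/F, so the libraries labelled ABpIF/F were the lowest of the 3 groups. Trp53 was at 4.29 to 6.74 CPM in Ctrl, 12.3 to 16.8 CPM in ABpIF/+ and 9.78 to 12.4 CPM in ABpIF/F, and a total over the gene does not check the deletion. Markers of hepatocytes, among them Alb, Ttr and Apoa1, summed to 112912 to 150777 CPM in Ctrl, 191292 to 269095 CPM in ABpIF/+ and 144144 to 242500 CPM in ABpIF/F. This sum is weighted by abundant genes. Alb alone took 8.23% to 11.1% of counted reads in Ctrl, 12.0% to 15.8% in ABpIF/+ and 12.4% to 18.1% in ABpIF/F. Of the 10 markers found, 5 were higher and 5 lower in ABpIF/+ than in Ctrl, and 6 higher and 4 lower in ABpIF/F. The 3 ABpIF/F mice and the Ctrl mouse malpa387 stood apart in clock genes. A score of the activator arm (Arntl, Clock and Npas2) minus the output arm (Dbp, Nr1d1, Per2 and others) was 1.94 to 3.33 in ABpIF/F, 2.62 in malpa387 and -1.27 to -0.57 in the other 11 mice. With this score as a covariate, comparisons of ABpIF/F therefore rest largely on malpa387 and on the spread within groups. A call lost in such a fit does not show that the difference is smaller or follows the clock.

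The stretches before the start sites show which short sequence elements lie closest to the members that changed. The RefSeq promoter table (GRCm38.p6) listed 13 start sites for the 8 members, and the 250 bases before the start are printed for Pck1, Fbp1, Hk2 and Slc2a1, the members that passed the test in at least 1 comparison and have a single listed start. Pck1 spans chr2:173153048-173159273 on the plus strand, with this stretch at chr2:173152823-173153072. Fbp1 spans chr13:62864753-62888282 on the minus strand, with the stretch at chr13:62888283-62888532. Hk2 spans chr6:82725025-82774454 on the minus strand, with the stretch at chr6:82774455-82774704. Slc2a1 spans chr4:119108711-119137983 on the plus strand, with the stretch at chr4:119108495-119108744. The other members lie at chr3:89136142-89146784 (Pklr, plus strand), chr9:59656368-59679375 (Pkm, plus), chr7:126795234-126800751 (Aldoa, minus) and chr7:46841475-46855627 (Ldha, plus) in GRCm38. All 4 lines run 5′ to 3′ toward the start, and capitals mark matches on either strand to the motifs named after them.
Pck1: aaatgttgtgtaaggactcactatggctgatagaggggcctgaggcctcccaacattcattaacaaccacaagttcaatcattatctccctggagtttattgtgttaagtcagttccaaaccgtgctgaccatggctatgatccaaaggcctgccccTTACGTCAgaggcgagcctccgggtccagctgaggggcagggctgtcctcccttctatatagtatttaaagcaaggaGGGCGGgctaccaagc
Fbp1: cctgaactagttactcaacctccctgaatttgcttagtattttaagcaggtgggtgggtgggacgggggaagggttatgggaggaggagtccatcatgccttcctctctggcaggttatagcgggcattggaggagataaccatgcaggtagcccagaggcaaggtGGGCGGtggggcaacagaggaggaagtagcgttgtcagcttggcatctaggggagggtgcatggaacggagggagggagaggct
Hk2: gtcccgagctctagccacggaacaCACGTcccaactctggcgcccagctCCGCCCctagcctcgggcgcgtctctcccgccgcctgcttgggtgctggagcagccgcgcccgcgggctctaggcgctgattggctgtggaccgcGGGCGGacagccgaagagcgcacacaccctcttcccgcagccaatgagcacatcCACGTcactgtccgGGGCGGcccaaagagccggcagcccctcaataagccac
Slc2a1: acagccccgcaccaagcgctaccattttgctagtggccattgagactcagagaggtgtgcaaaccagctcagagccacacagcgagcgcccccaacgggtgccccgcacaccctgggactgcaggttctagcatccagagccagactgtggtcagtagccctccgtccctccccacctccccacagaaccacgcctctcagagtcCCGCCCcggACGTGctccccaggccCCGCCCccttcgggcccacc
Both strands were searched for 7 motifs. TTACGTCA and TGACGTCA are forms of the cAMP response element. The AP-1 element was read as TGACTCA. For the E-box the letters were CACGTG, which contain the core of hypoxia response elements, ACGTG. The GC box was searched as GGGCGG. Matches to the TATA box were matches to TATAAA. Pck1 held TTACGTCA at 93 to 86 bases before its start, a motif found in 0.447% of the 32851 promoters in the table. The Pck1 stretch held no match to TGACGTCA. TTACGTCA was the only variant of that form searched, so its share is a description and does not test the match. The hypoxia core occurred at 2 places in Hk2 and 1 in Slc2a1, against 16.6% of promoters with a match, and the GC box occurred at 1 to 3 places in all 4 stretches, against 32.7% of promoters. Before the first of the 2 listed starts of Ldha, the E-box occurred at 2 places and TGACGTCA at 1, against 6.02% and 1.55% of promoters. The hypoxia core had 5 matches there, counting both strands of each E-box, although Ldha passed the test in no comparison. The 20 bases after this start were found in no annotated Ldha transcript. The core also had 1 match before the second listed start of Pkm and 1 before each of the first and second starts of Aldoa. The GC content of the stretch was 50.8% for Pck1, 56.4% for Fbp1, 69.6% for Hk2 and 66.4% for Slc2a1, and the median of all promoters was 52.4%.

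Each comparison was read from 1 edgeR quasi-likelihood fit over all 27179 genes, and a gene was called upregulated or downregulated at an adjusted p under 0.01 and at least a 2-fold change. Against Ctrl, ABpIF/+ livers had 2 members upregulated, Aldoa and Slc2a1, and 2 downregulated, Fbp1 and Hk2. Of all genes 10.0% were called in this comparison, 4.69% upward and 5.35% downward. In ABpIF/F livers no member was upregulated against Ctrl and 2 were downregulated, Pck1 and Fbp1, with 6.93% of all genes called, 4.55% upward and 2.38% downward. At an unadjusted p under 0.05, 2 members were higher and 3 lower in ABpIF/F than in Ctrl in the edgeR fit. DESeq2, read at an adjusted p under 0.01 and at least a 2-fold change, called 0 members upregulated and 3 downregulated in this comparison. Between the Braf V600E groups, Pck1 and Aldoa were higher and Hk2 and Pkm lower in ABpIF/+ than in ABpIF/F, with 7.24% of all genes called, 1.76% higher in ABpIF/+ and 5.49% lower. The Ctrl mice serve in both comparisons with Ctrl, and each Braf V600E group also serves in the comparison between them.

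**Figure D1:**
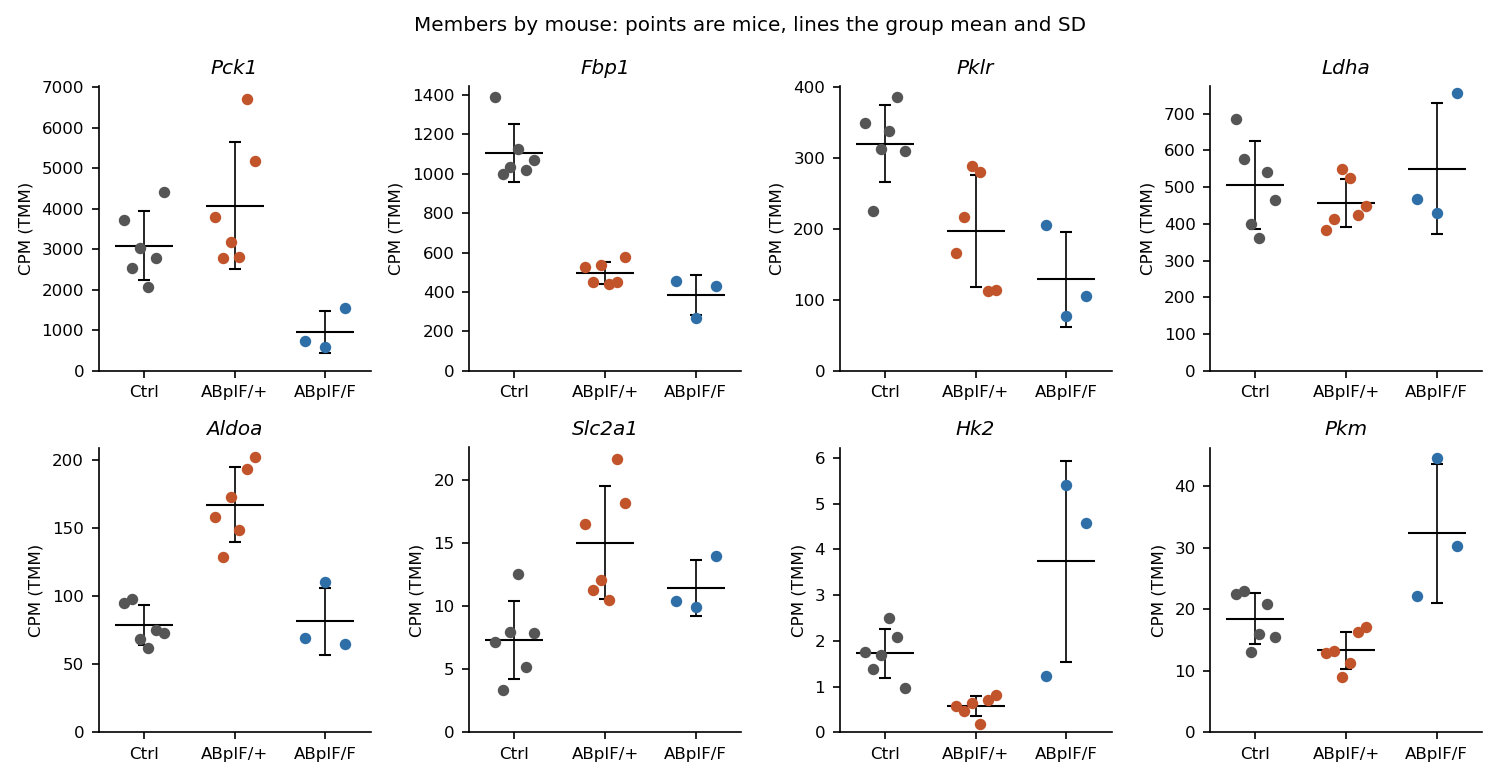
CPM of the 8 members in each mouse (points), with the group mean and SD (lines) for 6 Ctrl, 6 ABpIF/+ and 3 ABpIF/F mice, each panel on its own axis from 0. Fbp1 is lower in every Braf V600E mouse than in every Ctrl mouse, Aldoa is higher in ABpIF/+ alone, and Pck1 is lower in ABpIF/F alone.

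**Figure D2:**
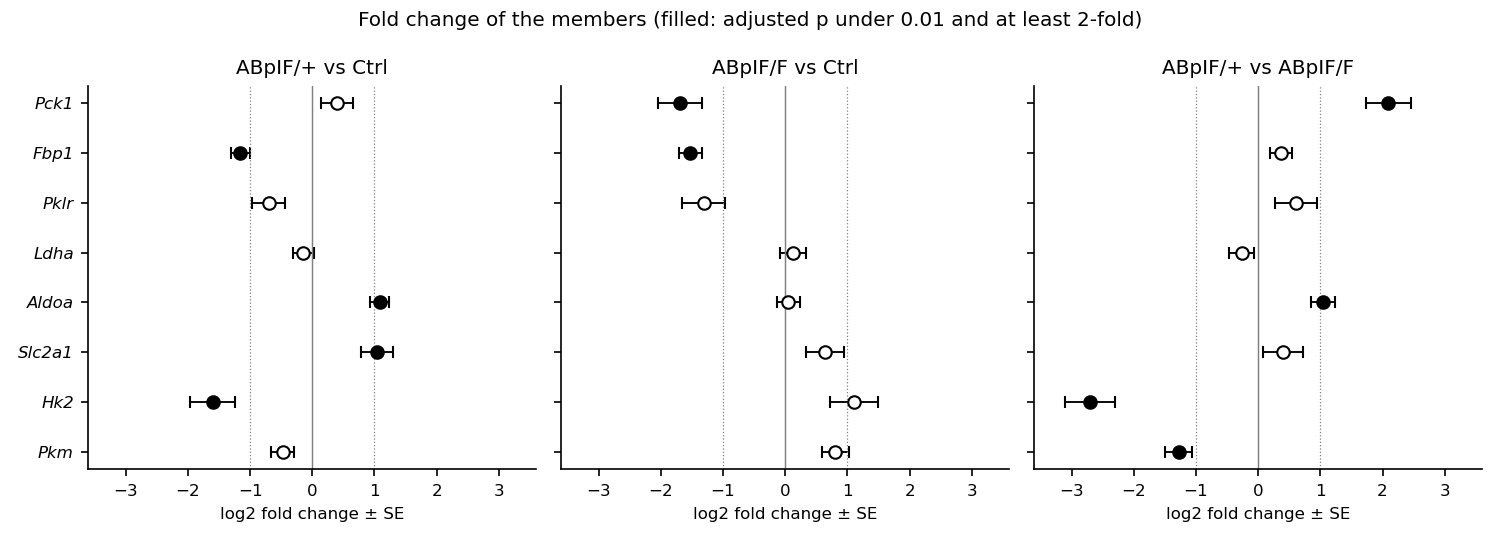
Log2 fold change ± SE of the members in the 3 comparisons, with filled points where the adjusted p was under 0.01 and the change at least 2-fold, and dotted lines at 2-fold. Hk2 lies on opposite sides of 0 in ABpIF/+ and ABpIF/F against Ctrl, and Ldha stays near 0 in all 3.

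Pck1, the cytosolic phosphoenolpyruvate carboxykinase that opens gluconeogenesis from oxaloacetate, differed between the Braf V600E groups. It was at 2080 CPM in the lowest, 2908 in the median and 4410 in the highest Ctrl mouse, at 2782, 3488 and 6717 CPM in ABpIF/+, and at 734, 581 and 1546 CPM in the ABpIF/F mice BG183, BG38 and BG90. All ABpIF/F mice lay below all mice of the other groups, while Ctrl and ABpIF/+ overlapped. Pck1 was 3.24-fold lower in ABpIF/F than in Ctrl (log2 fold change -1.70 ± 0.35 SE, adjusted p = 0.0017) and 4.27-fold higher in ABpIF/+ than in ABpIF/F (2.10 ± 0.36, adjusted p = 0.000388). Between ABpIF/+ and Ctrl the difference was 0.40 ± 0.26 on the log2 scale (adjusted p = 0.341). The call against Ctrl was lost at nearly the same fold without BG183 (-1.54, adjusted p = 0.0145) and without BG38 (-1.44, adjusted p = 0.0224), and at a larger one with the strain label as a covariate (-1.97, adjusted p = 0.0188). Adding the clock score to the model, both Pck1 calls were lost, at -1.59 against Ctrl (adjusted p = 0.108) and 1.97 between the Braf V600E groups (adjusted p = 0.0749). The Ctrl mouse with the clock score of the ABpIF/F mice, malpa387, had Pck1 at 2528 CPM, above all 3 of them, and the part of sampling time in the difference was not tested.

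Fbp1, the fructose-1,6-bisphosphatase of liver, fell in both Braf V600E groups. It was at 999 to 1390 CPM in Ctrl with a median of 1052, at 441 to 576 CPM in ABpIF/+ with a median of 489, and at 454, 269 and 431 CPM in BG183, BG38 and BG90. No Braf V600E mouse reached the lowest Ctrl mouse. The fall was 2.23-fold in ABpIF/+ (log2 fold change -1.15 ± 0.15, adjusted p = 2.08e-06) and 2.88-fold in ABpIF/F (-1.52 ± 0.19, adjusted p = 4.42e-06). ABpIF/+ and ABpIF/F overlapped and differed by 0.37 ± 0.18 (adjusted p = 0.18). Fbp1 kept both calls against Ctrl under each covariate and each left-out mouse, with the log2 fold change between -1.48 and -1.08 in ABpIF/+ and between -1.85 and -1.32 in ABpIF/F. BG3, the Ctrl mouse in the same strain label as the Braf V600E mice, had the highest value of all 15, 1390 CPM.

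Pklr encodes the liver and red cell pyruvate kinase, the last step of glycolysis. Ctrl mice had 225 to 385 CPM with a median of 325, ABpIF/+ mice 113 to 289 CPM with a median of 192, and BG183, BG38 and BG90 had 205, 76.7 and 105 CPM. All ABpIF/F mice were below all Ctrl mice, with BG183 the nearest, and ABpIF/+ overlapped both groups. The log2 difference from Ctrl was -0.70 ± 0.27 in ABpIF/+ (adjusted p = 0.07) and -1.31 ± 0.35 in ABpIF/F (adjusted p = 0.0146), so neither passed the threshold. The second lies near it. DESeq2 called it (adjusted p = 0.000238), as did the quasi-likelihood fit without BG183 (-1.82, adjusted p = 0.0015), while the clock score covariate brought it to -0.72 (adjusted p = 0.516). Pklr overlaps Hcn3 on the opposite strand, which was at 8.66 to 22.1 CPM in Ctrl, 11.9 to 47.2 CPM in ABpIF/+ and 1.86 to 10.9 CPM in ABpIF/F. The strand setting of the counting was not stated, so reads of the overlap cannot be assigned with certainty.

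Pkm encodes the pyruvate kinase of muscle, fetal and tumor cells. Its M1 and M2 splice forms are summed in these gene counts and cannot be told apart. Pkm was at 13.1 to 23.0 CPM in Ctrl with a median of 18.4, at 8.99 to 17.1 CPM in ABpIF/+ with a median of 13.1, and at 22.2, 44.5 and 30.3 CPM in BG183, BG38 and BG90. All ABpIF/F mice were above all ABpIF/+ mice, and Ctrl overlapped both. Pkm was 2.43-fold lower in ABpIF/+ than in ABpIF/F (log2 fold change -1.28 ± 0.22, adjusted p = 0.000334), which shrank to -0.98 without BG38 and so fell short of 2-fold, and to -0.83 with the clock score covariate (adjusted p = 0.275). Against Ctrl it was at -0.47 ± 0.19 in ABpIF/+ (adjusted p = 0.0702) and 0.81 ± 0.22 in ABpIF/F (adjusted p = 0.0128), the latter called at 1.02 without BG183 (adjusted p = 0.00222) but at 0.51 without BG38 (adjusted p = 0.197). The clock score covariate gave 0.43 (adjusted p = 0.708).

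Hk2, the high-affinity hexokinase that many tumors induce, was the least abundant member and moved in the same order as Pkm. Its read counts were 26 to 78 in Ctrl, 5 to 22 in ABpIF/+, and 38, 195 and 128 in the ABpIF/F mice. These correspond to 0.969 to 2.50 CPM in Ctrl with a median of 1.73, to 0.193 to 0.811 CPM in ABpIF/+ with a median of 0.610, and to 1.24, 5.40 and 4.57 CPM in BG183, BG38 and BG90. Every ABpIF/+ mouse was below every mouse of the other groups, and BG183 lay within Ctrl while BG38 and BG90 lay above it. Hk2 was 3.03-fold lower in ABpIF/+ than in Ctrl (log2 fold change -1.60 ± 0.36, adjusted p = 0.00164) and 6.52-fold lower than in ABpIF/F (-2.71 ± 0.40, adjusted p = 6.98e-05). ABpIF/F against Ctrl gave 1.11 ± 0.39 (adjusted p = 0.0536), called at 1.52 without BG183 (adjusted p = 0.00371). Without BG38 it was 0.74 (adjusted p = 0.412) and without BG90 0.94 (adjusted p = 0.217), so its size depended on the mouse left out. The call in ABpIF/+ against Ctrl was lost with the strain label as a covariate (-1.62, adjusted p = 0.0983), and that between the Braf V600E groups with the clock score covariate (-2.51, adjusted p = 0.126).

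Several marker lists of cells other than hepatocytes were lowest in ABpIF/+, as Hk2 and Pkm were, and others were not. The 10 markers of macrophages and Kupffer cells summed to 350 to 492 CPM in Ctrl, 147 to 258 CPM in ABpIF/+, and 293, 663 and 548 CPM in BG183, BG38 and BG90. Clec4f, which is specific to Kupffer cells, was at 106 to 152 CPM in Ctrl, 38.4 to 67.4 CPM in ABpIF/+ and 89.5 to 163 CPM in ABpIF/F, Adgre1 was at 14.3 to 24.7, 2.40 to 6.30 and 11.4 to 30.5 CPM, and Cd68 was at 8.16 to 10.6, 3.68 to 10.5 and 7.90 to 20.8 CPM. In ABpIF/+ against Ctrl 5 of these 10 markers were downregulated and 1 upregulated. The 9 markers of stellate cells and fibroblasts summed to 217 to 288 CPM in Ctrl, 59.5 to 127 CPM in ABpIF/+ and 241 to 390 CPM in ABpIF/F, with 7 of 9 downregulated in ABpIF/+. The 8 markers of T, B and NK cells summed to 3.64 to 5.95, 0.812 to 2.78 and 5.18 to 13.1 CPM in the same groups, with Cd3d of T cells at 0 in at least 1 ABpIF/+ mouse, and the 8 endothelial markers to 163 to 242, 78.4 to 181 and 185 to 260 CPM. The 8 neutrophil markers summed to 2.40 to 4.29 CPM in Ctrl, 3.10 to 8.66 CPM in ABpIF/+ and 4.70 to 87.0 CPM in ABpIF/F, and the 7 cholangiocyte markers to 75.2 to 115, 81.6 to 215 and 368 to 1312 CPM, so neither was lower in ABpIF/+ than in Ctrl. The 5 erythroid markers found went the other way, with 32.7 to 151 CPM in Ctrl, 73.5 to 239 CPM in ABpIF/+ and 63.8 to 114 CPM in ABpIF/F. Their part in the Hk2 and Pkm differences was not tested. In bulk tissue, fewer cells of a type and less RNA per cell cannot be told apart.

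**Figure D3:**
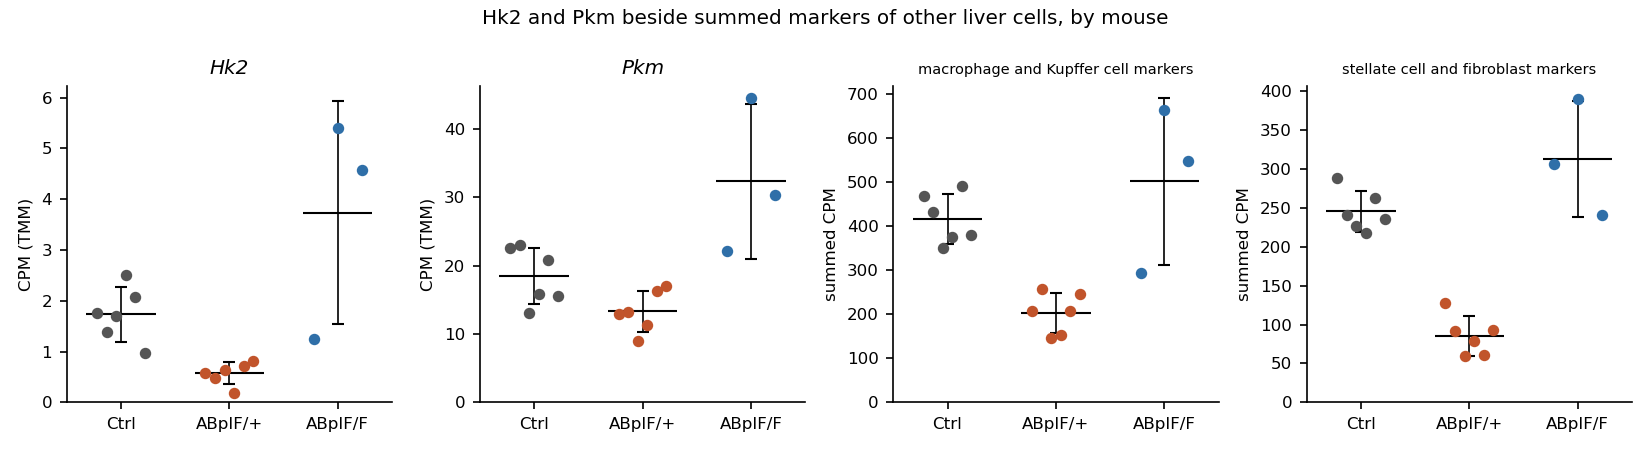
CPM of Hk2 and Pkm and the summed CPM of 10 macrophage and Kupffer cell markers and 9 stellate cell and fibroblast markers in each mouse (points), with group means and SD. The 6 ABpIF/+ mice are below all Ctrl mice for Hk2 and for both marker sums, and BG183 has the lowest Hk2, Pkm and macrophage sum of the 3 ABpIF/F mice.

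Aldoa, the aldolase of muscle and fetal liver, rose in ABpIF/+ alone. It was at 61.8 to 98.1 CPM in Ctrl with a median of 74.3, at 128 to 202 CPM in ABpIF/+ with a median of 166, and at 69.5, 110 and 64.8 CPM in BG183, BG38 and BG90. Every ABpIF/+ mouse lay above every other mouse, and ABpIF/F overlapped Ctrl. The rise was 2.13-fold over Ctrl (log2 fold change 1.09 ± 0.15, adjusted p = 9.22e-06) and 2.05-fold over ABpIF/F (1.04 ± 0.19, adjusted p = 0.000592), and ABpIF/F differed from Ctrl by 0.05 ± 0.19 (adjusted p = 1). Both folds lie just above the 2-fold threshold. With the strain label as a covariate the first became 0.82 (adjusted p = 0.0788), and the second fell short of 2-fold without BG55 (0.99), BG183 (0.93) or BG90 (0.90) and had an adjusted p of 0.0219 with the clock score covariate. Of 5 skeletal muscle markers, Ckm, Acta1, Myh4 and Tnnt3 had 3 counts or fewer in every mouse. The fifth, Mylpf, named after its values were seen, made up nearly all of the marker sum, which was 0.417 to 0.883 CPM in Ctrl, 0.580 to 1.74 CPM in ABpIF/+ and 0.464 to 0.609 CPM in ABpIF/F. Mylpf was higher in ABpIF/+ than in Ctrl by 1.00 on the log2 scale (adjusted p = 0.0215, not called), in the direction of Aldoa, and its part was not tested. The retrogenes Aldoart1 and Aldoart2 were at most at 0.0357 CPM.

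Slc2a1 encodes the glucose transporter GLUT1. Ctrl mice had 3.35 to 12.5 CPM with a median of 7.50, ABpIF/+ mice 10.5 to 21.7 CPM with a median of 14.3, and BG183, BG38 and BG90 had 10.4, 9.92 and 14.0 CPM. Only the highest Ctrl mouse, malpa458, reached into the ABpIF/+ range. Slc2a1 was 2.05-fold higher in ABpIF/+ than in Ctrl (log2 fold change 1.03 ± 0.26, adjusted p = 0.00559). This call is the least stable of the members, since it was lost in 8 of the 15 fits that left out a mouse, at log2 fold changes of 0.89 to 1.06 and adjusted p of 0.00496 to 0.0168, with the strain label as a covariate (1.08, adjusted p = 0.296), with the clock score covariate (0.95, adjusted p = 0.00638) and in a fit on Ctrl and ABpIF/+ alone (1.03, adjusted p = 0.0109). ABpIF/F differed from Ctrl by 0.64 ± 0.31 (adjusted p = 0.199) and from ABpIF/+ by 0.40 ± 0.31 (adjusted p = 0.497).

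Ldha, the lactate dehydrogenase subunit that favors lactate formation, passed the test in no comparison. Its levels were 363 to 686 CPM in Ctrl with a median of 503, 384 to 548 CPM in ABpIF/+ with a median of 437, and 467, 428 and 755 CPM in BG183, BG38 and BG90. The 3 groups overlapped. The log2 differences were -0.14 ± 0.17 in ABpIF/+ against Ctrl (adjusted p = 0.707), 0.12 ± 0.21 in ABpIF/F against Ctrl (adjusted p = 0.946) and -0.27 ± 0.21 in ABpIF/+ against ABpIF/F (adjusted p = 0.477).

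Per kilobase of exon, the order of the members was nearly the same in the 3 groups. In Ctrl the mean levels were 902 CPM per kb for Pck1, 650 for Fbp1, 153 for Ldha, 98.9 for Pklr, 27.0 for Aldoa, 3.70 for Pkm, 2.09 for Slc2a1 and 0.290 for Hk2. Neighbors whose ranges over mice overlapped were Pck1 and Fbp1, Ldha and Pklr, and Pkm and Slc2a1. In ABpIF/+ Pck1 stood at 1188 CPM per kb, clear of Fbp1 at 292, while Aldoa at 57.4 overlapped Pklr at 60.7, and Slc2a1 at 4.29 stood before Pkm at 2.66 with overlapping ranges. In ABpIF/F Pck1 at 278 CPM per kb, Fbp1 at 226 and Ldha at 166 overlapped in turn, and Pkm at 6.47 was clear of Slc2a1 at 3.26.

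The share of an isozyme in the sum with its counterpart was taken per kilobase in each mouse, as a description. The counterpart is the adult liver form except for Ldha, which was itself the main subunit in Ctrl and is set against Ldhb. For pyruvate kinase, Pkm made up 2.65% to 6.19% of the sum of Pkm and Pklr in Ctrl, 1.97% to 8.84% in ABpIF/+, and 6.54%, 27.3% and 15.8% in the ABpIF/F mice. ABpIF/F thus lay above all Ctrl mice for this share, with BG183 close to them.

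The share of Slc2a1 in the sum with Slc2a2, which encodes GLUT2, was 2.13% to 5.44% in Ctrl, 2.98% to 6.75% in ABpIF/+, and 4.96%, 9.38% and 15.2% in BG183, BG38 and BG90. Slc2a2 itself was 2.47-fold higher in ABpIF/+ than in ABpIF/F (adjusted p = 0.000455). Lactate dehydrogenase moved toward the other subunit. Ldha made up 99.1% to 99.5% of the sum of Ldha and Ldhb in Ctrl, 95.3% to 96.2% in ABpIF/+ and 97.7% to 99.2% in ABpIF/F, since Ldhb, the subunit common in heart, was 6.17-fold higher in ABpIF/+ (log2 fold change 2.62 ± 0.23, adjusted p = 1.04e-08) and 2.26-fold higher in ABpIF/F (1.18 ± 0.26, adjusted p = 0.00249). For phosphofructokinase, Pfkp, the platelet isozyme, made up 2.66% to 4.62% of its sum with the liver isozyme Pfkl in Ctrl, 10.8% to 21.3% in ABpIF/+, and 7.76%, 9.39% and 4.33% in the ABpIF/F mice. The ABpIF/+ range was clear of both other groups in this pair, and also in Ldha to Ldhb.

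**Figure D4:**
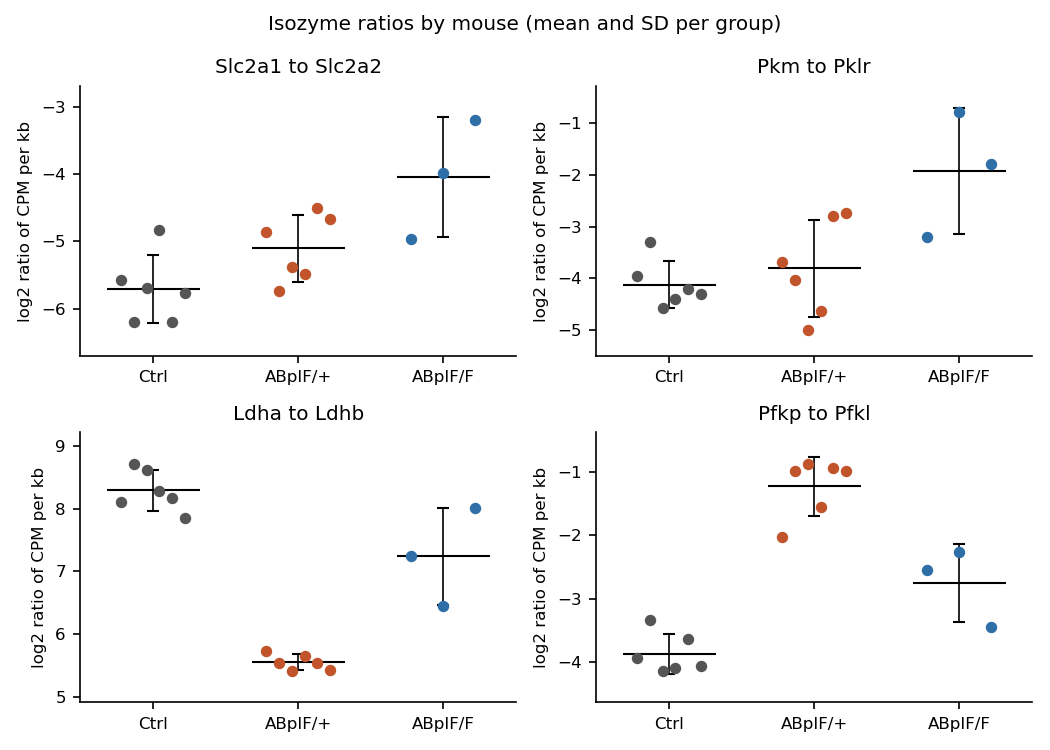
Log2 ratio of CPM of 4 isozyme pairs in each mouse (points), with group means and SD and the first-named gene as numerator. The ratio was not divided by exon length, although the axes read per kb. Ldha to Ldhb is lowest and Pfkp to Pfkl highest in the 6 ABpIF/+ mice, whereas Pkm to Pklr is highest in the 3 ABpIF/F mice on average.

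The other 52 listed genes of the pathway gave 9 upregulated and 4 downregulated genes in ABpIF/+ against Ctrl, 6 and 6 in ABpIF/F against Ctrl, and 10 higher and 5 lower in ABpIF/+ than in ABpIF/F. That is 25.0%, 23.1% and 28.8% of the list, where 17.6%, 12.6% and 12.2% of the genes averaging 1 CPM or more were called. Their median log2 fold changes were 0.22, -0.19 and 0.54, beside 0.017, -0.00077 and 0.038 over the 12316 genes averaging 1 CPM or more. Among transporters, Slc2a4, which encodes the insulin-responsive GLUT4 of muscle and fat, was at 0.968 to 4.39 CPM in Ctrl, 15.6 to 42.7 CPM in ABpIF/+ and 2.68 to 4.07 CPM in ABpIF/F, 10.3-fold higher in ABpIF/+ than in Ctrl (adjusted p = 9.51e-07) and 7.57-fold higher than in ABpIF/F (adjusted p = 0.000168). Of 5 fat cell markers, Adipoq, Plin1, Lep and Retn had 3 counts or fewer in every mouse. The fifth, Cidec, named after its values were seen, was at 2.01 to 3.43 CPM in Ctrl, 1.14 to 4.35 CPM in ABpIF/+ and 0.715 to 1.99 CPM in ABpIF/F, with the highest value in BG31. The skeletal muscle sum given above was also higher in ABpIF/+, and the part of either was not tested.

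Hexokinase 1 and 3 resembled Hk2. Hk1 was at 3.50 to 5.62 CPM in Ctrl, 0.968 to 2.24 CPM in ABpIF/+ and 3.85 to 6.81 CPM in ABpIF/F, and Hk3, a hexokinase of myeloid cells, at 4.75 to 7.99, 0.766 to 2.98 and 3.43 to 9.33 CPM. ABpIF/+ was below all mice of both other groups for either gene. The log2 fold changes in ABpIF/+ were -1.51 ± 0.22 (Hk1) and -1.80 ± 0.28 (Hk3) against Ctrl and -1.82 ± 0.25 and -1.79 ± 0.32 against ABpIF/F, with adjusted p of 1.47e-05, 4.21e-05, 3.24e-05 and 0.000446 in this order. The marker sums of macrophages and stellate cells given above moved in the same direction, and their part was not tested. In the next steps, Pfkp was at 1.98 to 4.09 CPM in Ctrl, 13.4 to 24.9 CPM in ABpIF/+ and 5.82 to 8.86 CPM in ABpIF/F (2.87 ± 0.19, adjusted p = 1.54e-10, and 1.47 ± 0.21, adjusted p = 2.67e-05, against Ctrl).

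**Figure D5:**
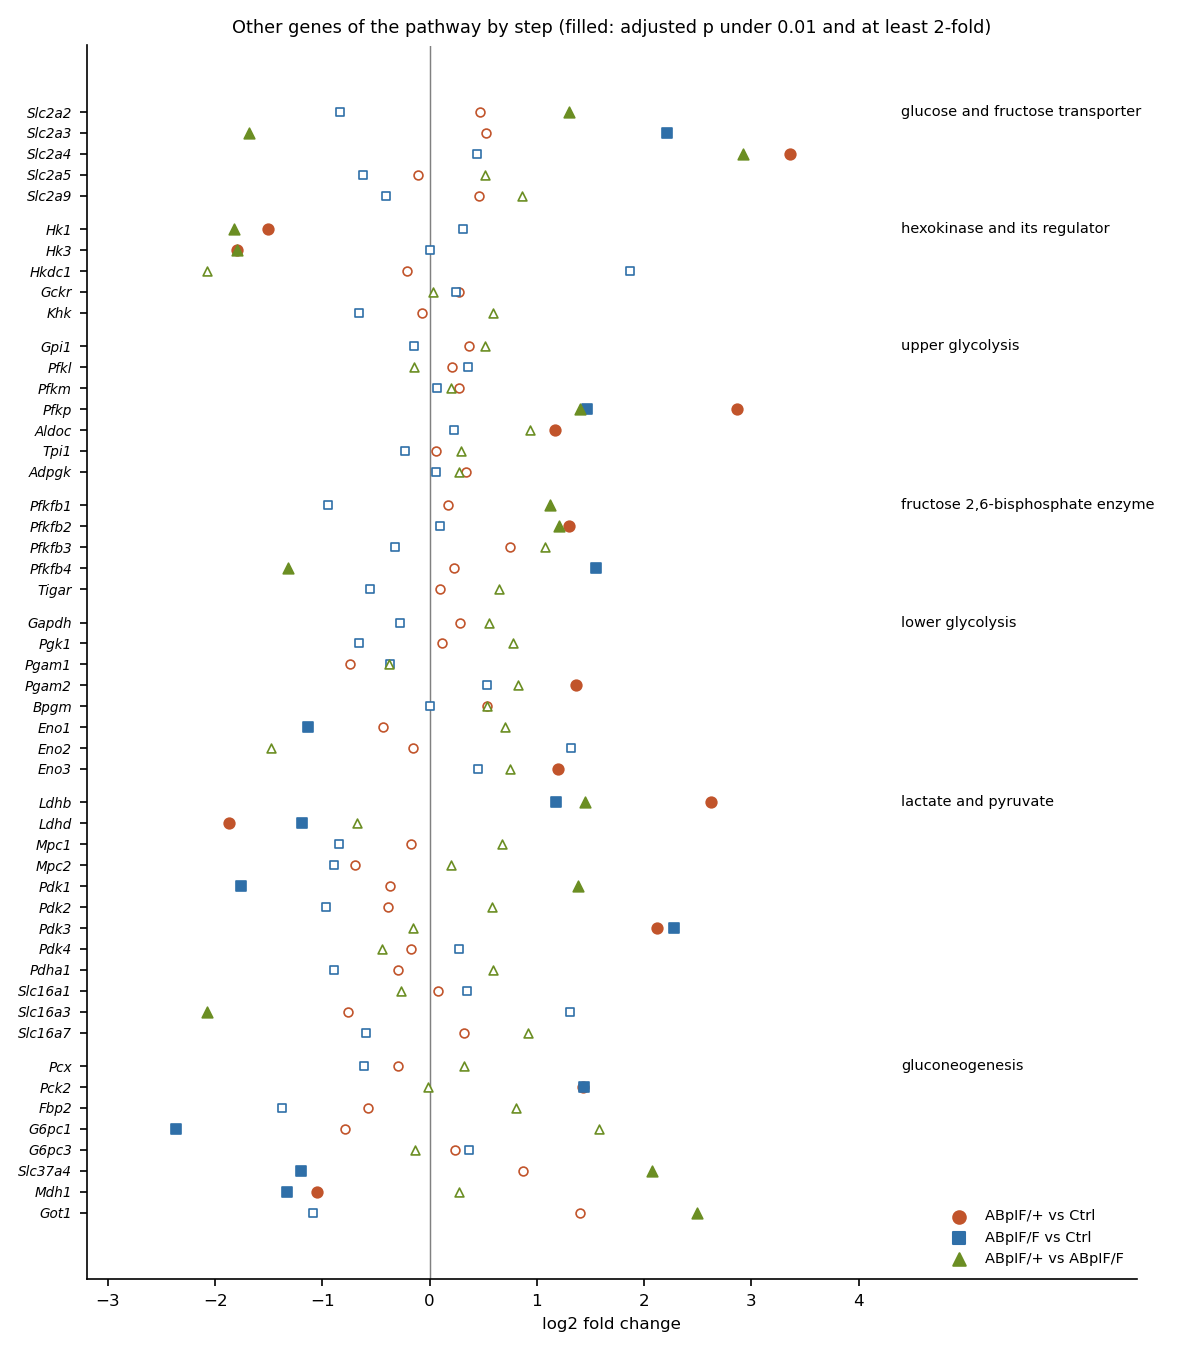
Log2 fold change of 50 of the 52 other pathway genes by step in ABpIF/+ against Ctrl (circles), ABpIF/F against Ctrl (squares) and ABpIF/+ against ABpIF/F (triangles), with filled symbols where the adjusted p was under 0.01 and the change at least 2-fold. The gluconeogenesis step has 3 filled squares left of 0, and the hexokinases have filled circles and triangles left of 0.

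At the gluconeogenic end, 3 of 8 listed genes were downregulated and 1 upregulated in ABpIF/F against Ctrl, beside Pck1 and Fbp1. G6pc1, the catalytic subunit of glucose-6-phosphatase that frees glucose, was at 127 to 607 CPM in Ctrl, 99.5 to 283 CPM in ABpIF/+ and 47.8 to 88.3 CPM in ABpIF/F (-2.36 ± 0.45, adjusted p = 0.00178), and the call was lost without BG38 (adjusted p = 0.0209) and with the strain label as a covariate (adjusted p = 0.0488). Slc37a4, the glucose-6-phosphate translocase beside it, fell by 1.20 on the log2 scale in ABpIF/F (adjusted p = 4.1e-05) and was 2.07 higher in ABpIF/+ than in ABpIF/F (adjusted p = 2.84e-07). Mdh1, the cytosolic malate dehydrogenase, fell in both groups, by 1.05 in ABpIF/+ (adjusted p = 1.92e-05) and by 1.33 in ABpIF/F (adjusted p = 4.98e-05). Pck2, the mitochondrial counterpart of Pck1, rose in both, from 3.02 to 7.72 CPM in Ctrl to 13.1 to 16.0 CPM in ABpIF/+ and 10.8 to 19.3 CPM in ABpIF/F (1.43 ± 0.19 and 1.44 ± 0.22, adjusted p = 5.52e-06 and 6.2e-05), and with the strain label as a covariate the calls were lost (adjusted p = 0.0453 and 0.0582). Got1, an aspartate transaminase, was 2.49 ± 0.54 higher in ABpIF/+ than in ABpIF/F (adjusted p = 0.00474), with 239 to 1528 CPM among the ABpIF/+ mice.

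Around pyruvate, Ldhd, which oxidizes D-lactate, fell from 110 to 142 CPM in Ctrl to 24.2 to 44.5 CPM in ABpIF/+ and 35.8 to 72.3 CPM in ABpIF/F (-1.87 ± 0.15, adjusted p = 3.86e-09, and -1.19 ± 0.19, adjusted p = 8.2e-05). Pdk1, a kinase that inhibits pyruvate dehydrogenase, fell in ABpIF/F by 1.76 (adjusted p = 1.29e-06), from 112 to 158 CPM to 30.1 to 50.5 CPM. Lower glycolysis had 2 of 8 genes upregulated in ABpIF/+ and 1 downregulated in ABpIF/F. The latter was Eno1, the enolase of most tissues, which fell by 1.14 (adjusted p = 3.43e-05), while Eno3, the muscle enolase, rose in ABpIF/+ by 1.20 ± 0.16 (adjusted p = 6.43e-06).

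Related lists were counted in the same way. In ABpIF/+ against Ctrl 21.4% of the glycogen, 23.8% of the regulator, 23.1% of the hypoxia and 37.5% of the fasting list were called, beside 17.6% of the genes averaging 1 CPM or more. In ABpIF/F against Ctrl the shares of the first 3 lists were 14.3%, 4.76% and 15.4%, and 4 of the 8 fasting genes were called, beside 12.6%. The lists hold only 8 to 21 genes, so 1 gene moves a share by several percentage points. Of 14 glycogen genes, 1 rose and 2 fell in ABpIF/+, and 1 rose and 1 fell in ABpIF/F. Pygb, the brain and fetal glycogen phosphorylase, rose in both, from 4.55 to 9.55 CPM in Ctrl to 18.7 to 29.9 CPM in ABpIF/+ and 23.9 to 39.8 CPM in ABpIF/F (1.88 ± 0.19 and 2.36 ± 0.21, adjusted p = 1.7e-07 and 1.32e-07), while Pygl, the liver phosphorylase, fell by 1.18 in ABpIF/+ (adjusted p = 1.05e-06). Of 21 transcriptional regulators of the pathway, 3 rose in ABpIF/+ and 2 fell. The risers were Myc (2.51 ± 0.47, adjusted p = 0.00108), a driver of glycolytic genes, Epas1 (1.60 ± 0.14, adjusted p = 1.58e-08), which encodes HIF-2α, and Ppargc1a (1.43 ± 0.19, adjusted p = 1.23e-05), a coactivator of gluconeogenic genes. Mlxipl, which encodes the glucose sensor ChREBP that acts on Pklr, fell by 1.04 in ABpIF/+ (adjusted p = 1.67e-05). In ABpIF/F against Ctrl 1 regulator, Creb3l3, passed, falling by 1.07 (adjusted p = 0.00123). Creb3l3 was also the other of the 2 fallers in ABpIF/+ against Ctrl, with a log2 fold change of -1.13.

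Of 13 hypoxia response genes, 1 rose and 2 fell in ABpIF/+ and 2 fell in ABpIF/F. Bnip3, a mitophagy receptor, was at 164 to 238 CPM in Ctrl, 532 to 746 CPM in ABpIF/+ and 91.7 to 143 CPM in ABpIF/F, and Egln3 and P4ha2 fell in both groups. Of 8 genes induced by fasting, 2 rose and 1 fell in ABpIF/+, and 1 rose and 3 fell in ABpIF/F. Igfbp1 rose in both, from 22.1 to 103 CPM in Ctrl to 1495 to 3691 CPM in ABpIF/+ and 404 to 1350 CPM in ABpIF/F. Tat, the tyrosine transaminase, followed Pck1, with 1561 to 2743 CPM in Ctrl, 2862 to 7793 CPM in ABpIF/+ and 275 to 796 CPM in ABpIF/F. The call of Tat in ABpIF/+ against Ctrl was among the least stable, as given next. Food intake before sampling was not given in the labels, and its part in Pck1 was not tested.

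Among these non-member genes, some calls depended on a mouse or covariate, and these are given here, most with the log2 fold change before and after. The calls of Eno1, Eno3 and Slc2a2 are not covered here. Without BG38, the calls in ABpIF/F against Ctrl were lost for Ldhb (1.18 to 0.89), Ldhd (-1.19 to -0.97), G6pc1 (-2.36 to -2.14) and Creb3l3 (-1.07 to -0.98). Between the Braf V600E groups, the same mouse ended the calls of Hk3 (-1.79 to -1.28) and Got1 (2.49 to 2.38). Got1 was also lost without BG183, Creb3l3 without BG90, Mdh1 in ABpIF/+ without BG3, and Mlxipl in ABpIF/+ without malpa458 or BG88. The rise of Tat in ABpIF/+ was lost when any of the Ctrl mice malpa387, malpa454, malpa458 and malpa459 or the ABpIF/+ mice BG175, BG55 and BG88 was left out, and leaving out a mouse brought it as low as 0.80.

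With the strain covariate, calls against Ctrl were lost in ABpIF/+ with a fold that fell clearly for Mlxipl (-1.04 to -0.58) and Tat (1.06 to 0.64) and less so for Myc (2.51 to 2.21) and Pck2 (1.43 to 1.27). In ABpIF/F the fold fell clearly for Ldhb (1.18 to 0.56), was close to its former value for Pfkp (1.47 to 1.43), G6pc1 (-2.36 to -2.20) and Pck2 (1.44 to 1.28), and was larger for Igfbp1 (3.85 to 4.99) and Creb3l3 (-1.07 to -1.20). With the clock covariate, calls in ABpIF/F against Ctrl were lost at smaller folds for Pfkp (1.47 to 1.00), Slc37a4 (-1.20 to -0.85), Igfbp1 (3.85 to 3.12), Tat (-1.81 to -1.48), Creb3l3 (-1.07 to -0.87) and P4ha2 (-1.16 to -0.95), and at equal or larger folds for Ldhd (-1.19 to -1.21), Ldhb (1.18 to 1.45) and Pck2 (1.44 to 1.62). Between the Braf V600E groups it ended the calls of Slc2a4 (2.92 to 2.05), Epas1 (1.13 to 0.72), Tat (2.86 to 2.50), Hk1 (-1.82 to -1.54), Hk3 (-1.79 to -1.68), Ldhb (1.45 to 1.14) and Pdk1 (1.39 to 1.12) at smaller folds, and of Got1 (2.49 to 3.21) and Ppargc1a (1.36 to 1.58) at larger ones. In ABpIF/+ against Ctrl it ended the call of Tat (1.06 to 1.02).

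Over the 15 mice, the genes whose log2 CPM followed each member most closely were ranked among genes averaging 5 CPM or more, as a description in which points share their group. For Pck1 these were Tat (r = 0.946) and Mmachc (0.932), for Fbp1 Sucla2 (0.983) and Nfs1 (0.976), and for Pklr Trub1 (0.910) and Ptgr3 (0.908). Hk2 was followed by Hcls1 (0.940) and Tgfbi (0.932), and Pkm by Coro1a (0.953) and Vim (0.952). Aldoa was followed by Psmd8 (0.960) and Sfpq (0.960), Slc2a1 by Arl13b (0.943) and Spry4 (0.876), and Ldha, with the lowest values, by Ifitm2 (0.857) and Vtn (0.801).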

How the data were processed

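Liver RNA of 15 mice was measured, and the 23 listed samples name 8 mice by 2 samples and 7 by 1, so the mouse was the unit throughout. The authors prepared stranded mRNA libraries, aligned reads to mm10 with HISAT2 (version 2.21 in the submitters' processing notes) and deposited raw counts per Entrez gene from featureCounts 2.0.8. The annotation, strand and multi-mapping settings are not given in the sources used here. A second deposited table repeats the counts of some mice with no differing count. Its 5 per-sample columns and the authors' own fold changes and p-values were not used.

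Counts of all 27179 genes, of which 20380 had a read and 1319 no symbol, were fitted in R 4.3.3 with edgeR 4.0.16 (TMM, robust quasi-likelihood F-test of the edgeR 3.36 form, 1 model of 3 groups, Benjamini-Hochberg adjustment over all genes, no covariate). A call needed an adjusted p below 0.01 with a change of 1 log2 unit or more, and SE is the log2 fold change divided by the square root of F. Log2 CPM used a prior count of 2. The fit, but not the other steps, was tested on simulated counts, for ABpIF/+ against Ctrl alone. The p-values take the mice as independent. The labels do not say whether litters were shared, so this could not be checked.

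The members and lists were chosen with earlier results of these data known. Named genes were the members, their isozyme partners, the called genes of each list with at least 5 CPM in 1 group (at most 4 per comparison and direction), the first 3 markers of a cell type and, for each member, the 2 genes with the highest Pearson correlation among genes averaging 5 CPM or more. Eno1 and Eno3 were named outside this rule. A pair of pathway genes and their isozyme ratios are not reported here by name. Tf and Hbb-bt were not found among the marker lists. Gene positions are from GENCODE M21 (GRCm38) and promoters from RefSeq (GRCm38.p6). Alternatives were DESeq2 1.42.0, RLE factors, filterByExpr, no robust estimation, the edgeR 4 form, fits on the compared groups, other thresholds, a prior count of 0.5, the strain label or clock score as a covariate, and leaving out each mouse.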

Additional observations from a re-analysis of the deposited data

Results flagged for a closer look

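Fbp1 in the Ctrl mouse BG3 stood apart from the other Ctrl mice, at 1390 CPM with the nearest at 1125 CPM. The gap took 0.678 of the range of the group, above the 95% critical value of Dixon's test for 6 samples. BG3 is the only Ctrl mouse of the crossed line. The test was applied to 28 groups and gave this 1 flag, and chance alone marks about 1 in 20 groups. The fall of Fbp1 kept its call in both Braf V600E groups without BG3.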

How the results depend on the processing

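No paired analysis was possible because the replicate numbers follow the order of the samples, each mouse belongs to 1 group, and nothing in the labels ties mice of different groups to a litter or batch. Of the 24 member log2 fold changes under 25 alternatives each, 543 of 600 values kept their direction and side of the threshold, 33 lost a call, 11 gained one and 13 changed sign. Many of these values could hardly change. Leaving out a mouse of the group not compared left a fold nearly as it was, and the other thresholds reuse the same fit. All sign changes were in differences that had not passed the test, and the cause was not tested. Aldoa in ABpIF/F against Ctrl became -0.0051 with filterByExpr, -0.22 with the strain covariate and -0.19 with the clock covariate, and ranged from -0.23 to 0.19 when a mouse was left out. Ldha in the same comparison became -0.32 and -0.16 with these covariates and ranged from -0.17 to 0.28. Between ABpIF/+ and ABpIF/F the clock covariate gave -0.084 for Pklr, 0.067 for Ldha and -0.50 for Slc2a1, and Ldha ranged from -0.42 to 0.029 when a mouse was left out. Counts of calls are given for all genes, members and other pathway genes in this order. In ABpIF/+ against Ctrl, 2729, 4 and 13 became 1095, 0 and 4 when a change of 2 log2 units was required. An adjusted p under 0.05 at any fold gave 6924 genes and 26 pathway genes. The strain covariate gave 1357 genes, 1 member and a pathway median of 0.14. In ABpIF/F against Ctrl, 1883, 2 and 12 became 4637, 4 and 24 at the looser threshold, 856, 0 and 3 at the stricter fold, 1148, 1 and 7 with the strain covariate and 516, 1 and 5 with the clock covariate. Between ABpIF/+ and ABpIF/F, 1969, 4 and 15 became 855, 2 and 4 at the stricter fold and 123, 0 and 2 with the clock covariate, and the looser threshold gave 4942 genes and 31 pathway genes. When a mouse was left out, the counts ranged from 2525 to 2778, 3 to 4 and 12 to 14 in ABpIF/+ against Ctrl, from 1212 to 2276, 1 to 4 and 7 to 17 in ABpIF/F against Ctrl, and from 1155 to 2048, 3 to 4 and 9 to 16 between them, with the fewest genes and pathway genes without BG38 in the latter 2. Without BG183, 4 members were called in ABpIF/F against Ctrl, and without BG38, 1. Differences in isozyme ratios were checked by leaving out each mouse, by a prior count of 0.5 and by RLE factors. No covariate was fitted to them. In ABpIF/F against Ctrl, the difference in the log2 ratio of Pkm to Pklr was 2.19. It ranged from 1.62 to 2.83 when a mouse was left out. The 5 to 22 reads of Hk2 per ABpIF/+ mouse limit its precision.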
